A study of Caenorhabditis elegans with 2 samples.

Results

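Divergent promoters are stretches of DNA from which a pair of neighbouring genes is read outwards, 1 on each strand. The peaks described here lie near gene starts on both strands in a ChIP-seq profile of the SoxC transcription factor SEM-2 of Caenorhabditis elegans. They were chosen by rank and position in the peak list made from both replicates together, here the combined list. A peak was taken when it was among the 5000 rows of highest signal, lay on a nuclear chromosome, had its summit more than 100 bp from any tRNA, snoRNA, snRNA, miRNA or ncRNA gene, and had that summit inside the windows of 2 or more protein-coding genes that include both strands, where a window reaches 1500 bp up and 500 bp down from a gene's annotated 5′ end. Of the 5000 rows, 371 (7.42%) met the rule and are called divergent peaks. Another 1264 (25.28%) had gene starts on 1 strand only within the window, 2502 (50.04%) lay away from gene starts and RNA genes, 845 (16.9%) lay at RNA genes and 18 were mitochondrial.

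The single group consisted of mixed-stage embryos, pooled over males and females and isolated by egg bleaching, with 1 hour given as their age. The strain, OP701, has the unc-119(tm4063) mutation and the transgene wgIs701, in which sem-2::TY1::EGFP::3xFLAG is joined to unc-119(+), so every sample carried the tagged protein, the mutation and the added unc-119 copies. There were 2 biological replicates, numbered 1 and 3, immunoprecipitated with an antibody against GFP after sonication to 200 to 800 bp. No second condition, strain without the tag or wild-type sample was analysed here, so peaks are compared by position and between replicates, with no test between conditions. Nothing in the sources used here says in which embryonic cells the fusion was present. No read counts come with the peaks, so the depth is unknown, and the scaling of the signal value, which is the authors' own throughout, is not given.

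As background, head-to-head genes share their upstream sequence, and in the compact C. elegans genome the same nucleosome-depleted stretch can serve transcription in both directions. Many C. elegans mRNAs receive a spliced leader in trans, so an annotated 5′ end often marks the splice acceptor rather than the base at which transcription starts. Sox proteins bind a short A- and T-rich core through an HMG box and bend the DNA. SEM-2 itself is known from genetics for its part in the postembryonic mesoderm, where it promotes the sex myoblast fate.

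The sequences at the strongest divergent peaks show what the base composition and word counts below rest on. They are from the RefSeq sequence of WBcel235, the assembly also called ce11, and are printed on the plus strand, 5′ to 3′. Capitals mark 4 words on either strand: GCCGCA, its shifted form CCGCAC, the word CGCACA, and also CGCGCA. They were picked after the values were seen because they were the most frequent of the 15 six-base words ranked below among the 50 strongest divergent peaks. The first 3 runs are the summit with 50 bases either side, at chrIII:8043924-8044024, chrIII:10461270-10461370 and chrIII:4568687-4568787. The fourth is the whole interval between the 5′ ends of ears-2, on the minus strand, and uncp-18, on the plus strand, at chrIV:390469-390559.
K12H4.6/K12H4.5: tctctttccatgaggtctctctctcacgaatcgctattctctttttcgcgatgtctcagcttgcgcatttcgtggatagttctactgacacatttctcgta
ecps-1/atx-2: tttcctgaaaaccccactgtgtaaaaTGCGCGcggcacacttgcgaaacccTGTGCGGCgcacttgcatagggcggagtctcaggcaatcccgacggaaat
mlcd-1/idhg-1: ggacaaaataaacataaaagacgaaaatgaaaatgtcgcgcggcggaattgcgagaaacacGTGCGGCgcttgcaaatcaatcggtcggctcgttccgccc
ears-2/uncp-18: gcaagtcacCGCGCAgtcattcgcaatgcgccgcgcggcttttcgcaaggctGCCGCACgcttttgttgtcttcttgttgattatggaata

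The other intervals shown are examples of other pairs whose summit lay between 5′ ends at most 300 bp apart. They lie at chrIII:10848964-10849221, chrV:1821324-1821578, chrIV:13386092-13386323 and chrIII:11236869-11237142. They hold runs of T and A in parts, and the summit lay at base 112 of the first, 120 of the second, 147 of the third and 150 of the fourth. The same 4 words are in capitals. How many intervals of pairs with a divergent peak hold them is given below for gaps of 250 to 500 bp.
fbxb-85/hex-3: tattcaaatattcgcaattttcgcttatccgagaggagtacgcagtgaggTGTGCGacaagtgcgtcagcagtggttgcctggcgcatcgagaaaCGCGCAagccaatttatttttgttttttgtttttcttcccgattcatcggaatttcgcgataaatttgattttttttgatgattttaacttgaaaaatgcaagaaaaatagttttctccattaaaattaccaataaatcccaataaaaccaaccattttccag
gly-7/mrpl-39: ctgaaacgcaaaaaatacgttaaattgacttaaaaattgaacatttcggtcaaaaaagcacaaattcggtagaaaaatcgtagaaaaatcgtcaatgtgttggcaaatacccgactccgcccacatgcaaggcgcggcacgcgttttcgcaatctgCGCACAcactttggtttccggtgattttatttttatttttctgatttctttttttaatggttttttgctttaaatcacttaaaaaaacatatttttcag
Y62E10A.20/Y62E10A.23: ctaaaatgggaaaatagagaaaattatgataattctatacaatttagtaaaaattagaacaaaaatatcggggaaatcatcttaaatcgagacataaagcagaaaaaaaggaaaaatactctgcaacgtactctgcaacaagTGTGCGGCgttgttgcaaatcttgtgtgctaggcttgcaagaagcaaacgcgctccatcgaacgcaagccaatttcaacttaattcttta
Y47D3A.14/aakb-2: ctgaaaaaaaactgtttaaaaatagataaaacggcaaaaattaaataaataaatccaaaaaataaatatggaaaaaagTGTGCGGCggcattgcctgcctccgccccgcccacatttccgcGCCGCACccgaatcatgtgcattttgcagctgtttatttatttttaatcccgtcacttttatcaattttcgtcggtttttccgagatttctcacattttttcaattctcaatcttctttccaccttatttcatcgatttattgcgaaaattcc

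Several of these intervals begin with ctg or end with cag, the sequence of a splice acceptor read on the strand of the gene. Of the 683 genes that form the pairs, 283 (41.4%) had AG directly before the annotated 5′ end and 154 (22.5%) had TTTCAG there. Over all 19973 nuclear protein-coding genes these counts were 5510 (27.6%) and 2447 (12.3%). Distances to a 5′ end in these data are therefore distances to the annotated end of the mRNA, whether or not transcription starts there.

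The strongest divergent peak lay between K12H4.6 and K12H4.5 (chrIII:8043800-8044143, signal 1006, rank 18 of the combined list), 1099 bp upstream of the first and 513 bp upstream of the second. Its signal was 572 in replicate 1, where it ranked 31, and 418 in replicate 3, where it ranked 4. The peak between ecps-1 and atx-2, the gene for the RNA-binding protein ataxin-2, followed (chrIII:10461149-10461474, signal 795), 69 bp upstream of atx-2. It had a signal of 467 and rank 43 in replicate 1 and a signal of 339 and rank 9 in replicate 3. Both peaks were thus placed higher in replicate 3 than in replicate 1.

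The peak between ears-2, a glutamyl-tRNA synthetase gene, and uncp-18 (chrIV:390342-390635, signal 636) had its summit 31 bp from the first 5′ end and 61 bp from the second. Its signal was 397 in replicate 1 (rank 64) and 234.6 in replicate 3 (rank 33). The peak 60 bp upstream of idhg-1, for a subunit of isocitrate dehydrogenase, and 607 bp upstream of mlcd-1 (chrIII:4568607-4568865, signal 583) had a signal of 411 in replicate 1 (rank 57) and 166 in replicate 3 (rank 89). These 4 peaks led the class in the combined list and were within the 100 strongest of each replicate.

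Next came the peaks at spe-48/Y51F10.11 (chrI:1958440-1958695, signal 481), rnf-121/C16C10.4 (signal 438) and snx-13/snr-1 (chrIV:17087538-17087682, signal 416). snx-13 encodes a sorting nexin and snr-1 an Sm protein of the spliceosomal small nuclear ribonucleoproteins. The summit lay 151 bp upstream of snx-13 and 460 bp upstream of snr-1, with a signal of 206 in replicate 1 (rank 195) and 187 in replicate 3 (rank 61). The remainder of the 20 strongest lay at his-31/his-32, rpl-15/K11H12.8, nmad-1/hach-1, B0495.9/sre-1, K01G5.10/tasp-1, dnj-29/ndua-2, gei-6/krr-1, tig-2/F39G3.3, npp-8/ced-2, dvc-1/ima-1, Y22D7AL.10/hsp-60, algn-13/R10D12.13 and his-60/his-59. Among these genes, npp-8 encodes a nucleoporin, ima-1 an importin alpha, hsp-60 the mitochondrial chaperonin, krr-1 a factor of ribosome biogenesis and ced-2 an adaptor of cell corpse engulfment.

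The nmad-1/hach-1 peak (chrIII:5555035-5555227, signal 373) differed most between the replicates among these 20. Its signal was 322 in replicate 1, where it ranked 97, and 58.5 in replicate 3, where it ranked 1726. All 20 peaks ranked among the 5000 strongest of both replicates, and 18 of them, all but those at the pairs of histone genes, had the summit between the 5′ ends.

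The range of signal over the 371 divergent peaks was 83.3 to 1006, with a median of 106, against 83.3 to 600 and a median of 98.9 in one-strand promoter peaks. The signal chose the members, so these values are a description. The weakest member lay at the histone genes his-4/his-3 (chrV:16039876-16040311, signal 83.3, rank 4987), and the next peak that met the position rule, at his-35/his-41, had a signal of 83.1 at rank 5042. The list of peaks that passed the authors' threshold held 82 divergent peaks (22.1%), 93 one-strand promoter peaks (7.36%) and 12.4% of all nuclear peaks of the 5000. It is the top of the combined list by the same signal value, and nothing further is read from this share. Its last divergent peak lay at R107.5/cls-2 (signal 154) and the first one below it at rab-14/nipi-3 (signal 149).

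Divergent peaks made up more of the thresholded ranks than of those below. Of all nuclear peaks they were 11.1% at ranks 1 to 250, 14.6% at ranks 251 to 634, 7.10% at ranks 635 to 1000 and 6.3% at ranks 4001 to 5000. RNA genes took 189 of the 234 nuclear peaks at ranks 1 to 250, and the shares were also taken without them. Of the 45 nuclear peaks at ranks 1 to 250 that did not lie at RNA genes, 26 (57.8%) were divergent, and of the 234 at ranks 251 to 634, 56 (23.9%) were. The share was 8.78% at ranks 635 to 1000 and 6.87% at ranks 4001 to 5000. The bases that meet the position rule made up 4.56% of the nuclear bases not at RNA genes. Below the 5000 strongest rows the share of peaks at such positions was 5.19% at ranks 5001 to 10000, 5.12% at ranks 10001 to 20000 and 5.43% at ranks 20001 to 30000.

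**Figure D1:**
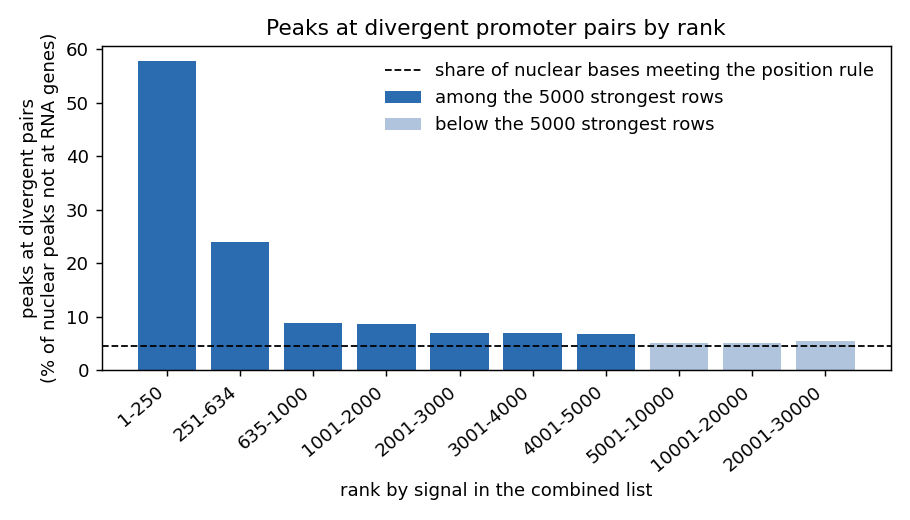
Share of nuclear peaks not at RNA genes that lay at divergent pairs (vertical axis, percent) by rank in the combined list (horizontal axis, strongest at the left). Dark bars are ranks within the 5000 strongest, light bars ranks below them, and the dashed line is the share of bases that meet the position rule, 4.56%. The share was 57.8% at ranks 1 to 250 and 5.43% at ranks 20001 to 30000.

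Per megabase of sequence that meets the rule, the combined list had 83.3 divergent peaks, against 44.7 one-strand promoter peaks and 38.5 peaks away from gene starts and RNA genes per megabase of their own sequence. When the rule was applied to the 5000 strongest peaks of each replicate, replicate 1 had 376 divergent peaks, 84.4 per megabase, against 46.6 for one-strand promoters and 38.4 away from gene starts. In replicate 3 there were 282, or 63.3 per megabase, against 41.3 and 43.6. The order of divergent over one-strand peaks was present in both replicates, and the difference was smaller in replicate 3.

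Most divergent peaks lay between the pair's gene starts. The pair was taken as the nearest 5′ end on each strand, and in 364 of 371 cases (98.1%) the genes pointed away from each other, as the name of the class says. In the other 7 (1.89%), among them sws-1/mrps-35 and rga-8/Y34B4A.2, the 5′ parts of the genes overlapped. The summit was between the 5′ ends in 252 (67.9%, exact 95% interval 62.9 to 72.6, for counting error only). In 112 (30.2%) the genes pointed away from each other and the summit lay downstream of 1 of the 5′ ends. Not all of the 112 lay within a gene: at his-6/his-5 the summit was 360 bp downstream of the his-5 end and intergenic. Of the bases that meet the rule, 53.9% lie between the 5′ ends. The share between the ends was 70.2% in replicate 1 (264 of 376) and 57.1% in replicate 3 (161 of 282), so replicate 3 lay close to the share of bases.

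The gap between the 5′ ends had a median of 649 bp over all divergent peaks and ranged from 92 to 2464 bp, with a median of 758.5, where the summit lay between them. Within those 252 intervals the summits were spread over the whole gap. From the minus-strand end to the plus-strand end, successive stretches of 20% of the gap held 48, 53, 65, 48 and 38 summits. The nearest 5′ end was a median of 180 bp away and the farther one 629 bp. It was within 250 bp for 245 peaks (66.0%), while both ends were within 250 bp for 57. The nearest end was that of the minus-strand gene in 195 and of the plus-strand gene in 176.

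**Figure D2:**
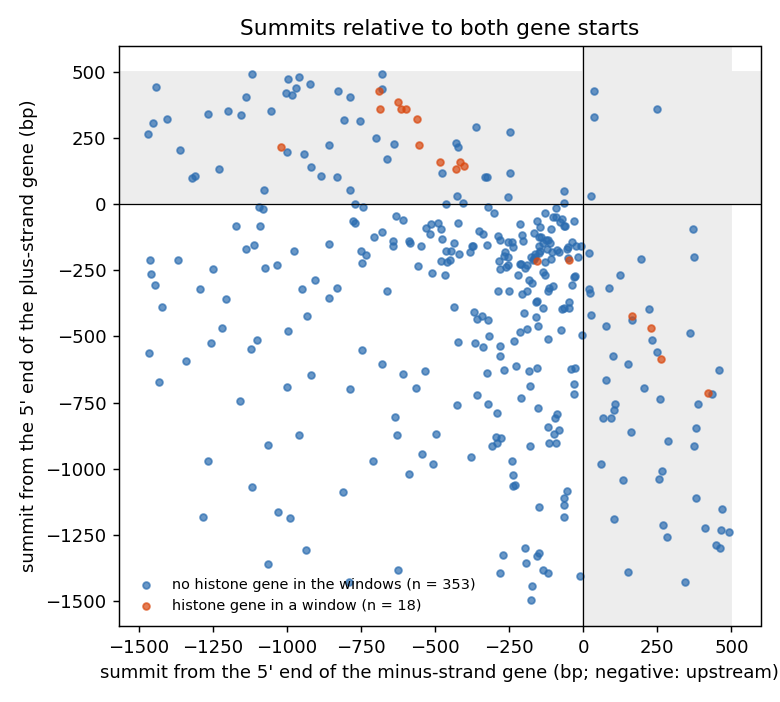
Position of each divergent summit relative to the 5′ end of the minus-strand gene (horizontal axis, bp) and of the plus-strand gene (vertical axis, bp), negative values lying upstream. The white lower left field holds the 252 summits between the ends and the grey bands are positions downstream of a 5′ end. Orange points are the 18 summits with a histone gene in a window, 2 of which lie between the ends, and blue points are the other 353.

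Seen from the gene pairs, 319 of 3038 consecutive head-to-head pairs with a gap of up to 3000 bp (10.5%) had a divergent peak assigned. Its summit could lie between the ends or not. The share differed with the gap. It was 9.92% for gaps of up to 250 bp (37 of 373), 16.7% from 250 to 500 bp (91 of 544, exact 95% interval 13.7 to 20.1), 13.2% from 500 to 1000 bp (109 of 828), 8.96% from 1000 to 2000 bp (73 of 815) and 1.88% from 2000 to 3000 bp (9 of 478). At the widest gaps part of the interval lies outside the windows, which limits what the rule can find there. The sequence in which both windows of a pair meet also grows with gaps up to 1000 bp and shrinks beyond. These shares are thus not rates per base, and the part of the window rule in them was not tested. A peak at any of the 30000 ranks was assigned to 1122 of the pairs (36.9%).

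The 371 summits fell at 345 pairs, of which 23 held 2 or more summits and 1 pair as many as 4, so summits are not independent of each other. By annotation, 244 summits (65.8%) were intergenic, 77 (20.8%) in coding sequence, 27 in introns and 23 in non-coding exons. Intergenic members overlapped the 5000 strongest peaks of both replicates in 104 cases (42.6%), against 19 of the 77 in coding sequence (24.7%). The intergenic members were also stronger, with a median signal of 116 against 95.7, and the 2 were not separated. The summit lay in the windows of 2 genes at 300 peaks, of 3 genes at 66 and of 4 genes at 5.

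The replicates shared the strong members more often than the weak ones, which the making of the combined list from both favours. Of all 371, 139 (37.5%, exact 95% interval 32.5 to 42.6) overlapped the 5000 strongest peaks of both replicates, against 360 one-strand promoter peaks (28.5%, 26.0 to 31.1) and 33.3% of all nuclear peaks of the 5000. The overlap with replicate 1 alone was 276 of 371 (74.4%), against 64.2% of one-strand promoter peaks and 63.4% of all nuclear peaks. With replicate 3 it was 201 of 371 (54.2%), against 51.7% of one-strand promoter peaks and 57.1% of all nuclear peaks. The combined list was made from the reads of both replicates, so these shares describe how evenly each contributed and are no independent check. In replicate 3 the share of divergent peaks was below that of all nuclear peaks.

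By strength, 48 of the 50 strongest divergent peaks (96%) were among the 5000 strongest of both replicates, 57 of the next 100, and 34 of the last 221 (15.4%). Strength is the signal of the combined list, made from the same reads, so a fall with strength is built in. Other peaks were not counted at like strength, and nothing particular to divergent peaks is read from it. The median rank of the 50 strongest was 247 in replicate 1 and 285.5 in replicate 3. For the last 221 it was 3622 in replicate 1 and 5371 in replicate 3. The share with the summit between the 5′ ends was 82% in the 50 strongest (41), 80 of the next 100, and 59.3% in the last 221 (131). Altogether 137 members (36.9%) were among the strongest of replicate 1 only, 62 (16.7%) of replicate 3 only and 33 (8.89%) of neither, against 30.0%, 23.8% and 12.8% of all nuclear peaks.

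Members differed in place by which replicate held them among its strongest 5000. Of the 62 of replicate 3 only, 31 (50%) had the summit between the 5′ ends and 24 (38.7%) had it in coding sequence, whereas of the 137 of replicate 1 only, 98 (71.5%) lay between the ends and 23 (16.8%) in coding sequence. Of the 33 of neither, 11 (33.3%) were in coding sequence, and of the 139 shared by both, 19 (13.7%). These sets differed in strength too. Their median signal was 93.4 for replicate 3 only, 105 for replicate 1 only, 87.4 for neither and 154 for both. In the full lists of 30000 rows, 363 members (97.8%) overlapped a peak of replicate 1, against 96.4% of all nuclear peaks, and 352 (94.9%) one of replicate 3, against 95.1%. The strongest of the 8 without a peak in replicate 1 had a signal of 111. The 19 without a peak in replicate 3 include those at mel-46/lsy-13 (signal 173), fbxc-44/C16A11.2 (164) and larp-1/wip-1 (158), which are in the thresholded list, and those at his-17/his-18 and rsp-2/rsp-1.

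**Figure D3:**
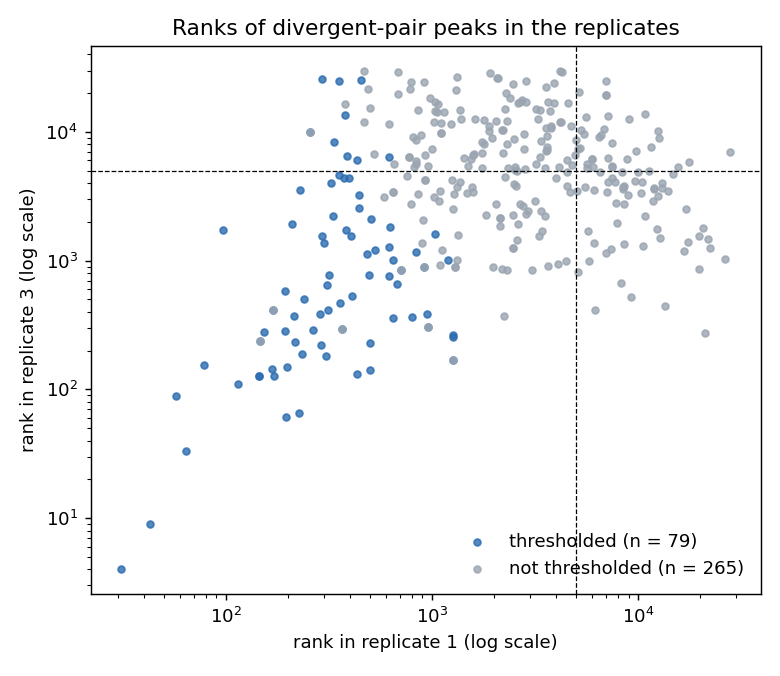
Rank of the overlapping peak in replicate 1 (horizontal axis, log scale) against that in replicate 3 (vertical axis, log scale) for the divergent peaks found in both full lists, where low numbers are strong peaks. Dashed lines mark rank 5000, blue points are the 79 members of the thresholded list and grey points the other 265. The strongest members lie low on both axes, while the grey points spread over the whole range of replicate 3.

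The chromosomes differed in how many divergent peaks they held. Chromosome I had 85, or 115.9 per megabase of sequence meeting the rule, III had 72 (107 per megabase), IV 69 (89.9), X 25 (81.1), II 54 (67.5) and V 66 (56.2). X held 6.74% of divergent peaks and 6.92% of the sequence that meets the rule, so its low count goes with its few such positions. Of one-strand promoter peaks, 18.0% lay on X. By replicate the order changed. In replicate 1 the counts per megabase were 102.3 on I, 119.1 on III, 86.0 on IV, 64.9 on X, 83.7 on II and 57.9 on V. In replicate 3 they were 92.7 on I, 81.9 on III, 48.2 on IV, 55.2 on X, 61.2 on II and 47.7 on V, so IV had 37 peaks there, against 69 in the combined list. I and III had the highest counts per megabase in each list and V the lowest.

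The divergent peaks had 748 protein-coding genes in their windows, 3.75% of the 19973 and 10.3% of the 7291 genes whose window meets that of a gene on the other strand. Only those 7291 could be counted, and the shares below are of the countable genes. The gene lists are described by these counts alone. Genes were placed in a list by their symbol alone. Genes of the same process with other symbols, or with a sequence name only, were therefore not counted. A gene at such a peak need not be the gene the peak acts on, since each summit was counted for every gene whose window holds it, and 597 of the 748 genes were in none of the lists.

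Genes for the translation machinery were among those with high counts. Of the cytosolic ribosomal protein genes, 19 of 56 (33.9%) had a divergent peak. rpl-15 had a signal of 373 (rank 168 in replicate 1 and 143 in replicate 3), with the summit 317 bp upstream. rpl-20 had 238 (rank 239 in replicate 1 and 503 in replicate 3) and rps-26 had 218 (rank 332 in replicate 1 and 2227 in replicate 3). Of these 19 summits 11 lay between the 5′ ends and 6 in coding sequence, 10 were among the strongest of both replicates, and for 9 of the 19 genes the ribosomal protein gene had the nearest 5′ end. Translation factors gave 6 of 21 (28.6%), led by iff-2, an eIF5A gene (signal 170), and 2 of the 6 had the nearest 5′ end. tRNA synthetases gave 3 of 15 (20%), namely ears-2, mars-1 and aars-1. Mitochondrial ribosomal protein genes gave 6 of 40 (15%), nearer the 10.3% of all countable genes.

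Lists of nuclear processes had similar shares. Nuclear pore genes had 7 of 17 (41.2%), led by npp-8 (signal 302, rank 194 in replicate 1 and 284 in replicate 3) and npp-6 (191). Splicing genes had 10 of 28 (35.7%), led by snr-1, the SR protein gene rsp-3 (181) and prp-19 (180). RNA polymerase and general transcription genes had 7 of 27 (25.9%), of which 5 were Mediator subunits, among them mdt-6 (161). The DNA replication and cell cycle list had 9 of 36 (25%), led by cdc-48.1 (181), cdk-9 (170) and sld-2 (123). cdc-48.1 and cdk-9 are in it by the first letters of their symbols alone. For mdt-6 the summit lay at -911 bp from its 5′ end, and the nearest 5′ ends were those of other genes, Y57E12AL.6 and Y57E12AL.1. The list gene had the nearest 5′ end for 2 of the 7 nuclear pore genes and 4 of the 10 splicing genes. It did for 2 of the 7 transcription genes and 4 of the 9 replication and cell cycle genes. In the same order, 2 of 7, 4 of 10, 5 of 7 and 5 of 8 summits were among the strongest of both replicates.

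Of the other lists of cell processes, the chaperone list had 10 of 36 (27.8%). Among the genes listed, dnj-29 (345), hsp-60 (296) and hsp-16.2 (138) had the highest signal. Vesicle and membrane traffic genes had 14 of 51 (27.5%), led by snx-13, vps-51 (271) and the late endosome GTPase gene rab-7 (264). The summit counted for rab-7 lay 791 bp upstream of it, and the nearest 5′ ends were those of W03C9.5 and mex-1. The ubiquitin system had 5 of 28 (17.9%), with uba-2 highest (139). Respiratory chain genes had 4 of 30 (13.3%), with cyc-2.1, a cytochrome c gene, highest (238). Proteasome genes had 3 of 24 (12.5%), with rpn-7 highest (192).

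Most lists of regulators and of large gene families had lower shares than these. ceh homeobox genes had 2 of 16 (12.5%), ceh-38 (157) and ceh-40 (107), and nuclear hormone receptors had 3 of 71 (4.23%), none with the nearest 5′ end. bHLH genes had 0 of 7 and Wnt pathway genes 0 of 6, numbers too small to show a low share. None of the 5 Sox genes lies where the rule could count it. Chemoreceptor genes had 6 of 387 (1.55%), C-type lectins 3 of 106 (2.83%), collagens 2 of 52 (3.85%), F-box genes 10 of 136 (7.35%) and major sperm protein genes 0 of 17. The strongest of the chemoreceptor genes, sre-1, was 903 bp from a summit that lay 91 bp upstream of B0495.9.

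**Figure D4:**
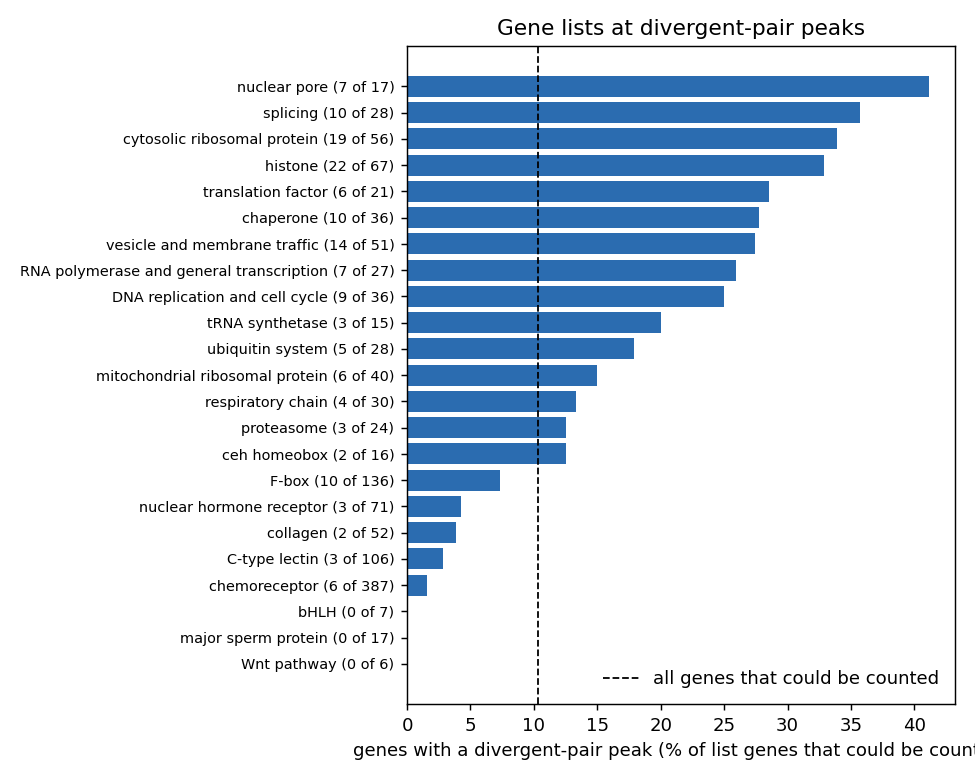
Share of the countable genes of each list that had a divergent peak in their window (horizontal axis, percent), with the counts in the labels, and the share over all countable genes as a dashed line at 10.3%. Nuclear pore, splicing, cytosolic ribosomal protein and histone genes are at the top, with 41.2%, 35.7%, 33.9% and 32.8%, and the Sox list, with no countable gene, is not drawn.

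Histone genes, which in C. elegans lie in clusters of near-identical copies, had 22 of 67 (32.8%), and they differed from the other members in where the summit lay. There were 18 summits with a histone gene in a window, at 10 pairs with a median gap of 257 bp, and 17 of the 18 were on IV or V. Only 2 (11.1%) lay between the 5′ ends, at his-67/his-68 and his-60/his-59, while 9 were in coding sequence. Among the 353 other summits, 250 (70.8%) lay between the ends and 68 (19.3%) in coding sequence, with a median gap of 686 bp. The copies share sequence, and how reads that map to several copies were treated is not given in the sources used here, so which copy a peak belongs to is uncertain.

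The strongest histone peak was at his-31/his-32 (chrIV:8334229-8334828, signal 399), with its summit 160 bp inside the his-32 gene, rank 145 in replicate 1 and 126 in replicate 3. At his-60/his-59 (chrIV:7487660-7488084, signal 283) the rank was 170 in replicate 1 and 414 in replicate 3, and at his-63/his-64 (signal 206) it was 255 in replicate 1 and 9943 in replicate 3. The stronger peak at his-2/his-1 (signal 160) ranked 452 in replicate 1 and 25327 in replicate 3. Over the 18 summits the median rank was 352 in replicate 1 and 4051.5 in replicate 3, and 17 were among the strongest 5000 of replicate 1 but 9 among those of replicate 3. A replicate peak that overlapped the peaks of several summits was counted for each of them, so these ranks are not independent. Most histone peaks thus ranked higher in replicate 1, but those at his-31/his-32 with ranks 145 and 126 did not. Nor did the his-67/his-68 peak, with rank 501 in replicate 1 and 141 in replicate 3. A weaker his-60/his-59 peak (signal 96.4) had rank 6155 in replicate 1. In replicate 3 it overlapped the same peak, of rank 414, as the stronger his-60/his-59 peak, so it has no rank of its own there. The other members also had a higher median rank in replicate 1, 2035 against 3810 in replicate 3. Of the 18, 8 (44.4%) counted as shared.

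Both genes of the pair belonged to 1 list at 21 summits in 13 pairs, and 17 of these summits, at 9 pairs, were histone pairs. The others were the small heat shock protein genes hsp-16.2/hsp-16.41, the SR protein genes rsp-2/rsp-1, the F-box genes fbxb-93/fbxb-56, and orc-5/cyb-1, a subunit of the origin recognition complex beside a cyclin B gene. At hsp-16.2/hsp-16.41 (chrV:1805062-1805497, signal 138) the summit lay 102 bp inside hsp-16.41, in coding sequence, with rank 1021 in replicate 1 and 3122 in replicate 3. The peak at rsp-2/rsp-1 (chrII:11453023-11453458, signal 136) lay between the ends, 286 bp from rsp-2 and 121 bp from rsp-1, and had rank 545 in replicate 1 and no overlapping peak in replicate 3. The fbxb-93/fbxb-56 peak (signal 98.8) ranked 7381 in replicate 1 and 1231 in replicate 3, and the orc-5/cyb-1 peak (signal 90.5) ranked 10574 in replicate 1 and 1295 in replicate 3.

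The bases at the summits were richer in G and C than those around them. The 101 bases centred on the divergent summits held 46.1% ± 8.90 G and C (SD over 371 windows), against 37.3% ± 8.81 in the same windows 500 bp below and 37.6% ± 8.98 in those 500 bp above, and 290 of 371 (78.2%) were higher than their window below. One-strand promoter peaks had 45.7% ± 9.40 at the summit and peaks away from gene starts 46.6% ± 8.79, so the level was not particular to divergent pairs. The width of the rise differed. From 120 to 139 bp above the summit the mean was 35.8% at divergent peaks, against 40.3% at one-strand promoter peaks, while from 0 to 19 bp it was 48.3% against 46.7%.

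**Figure D5:**
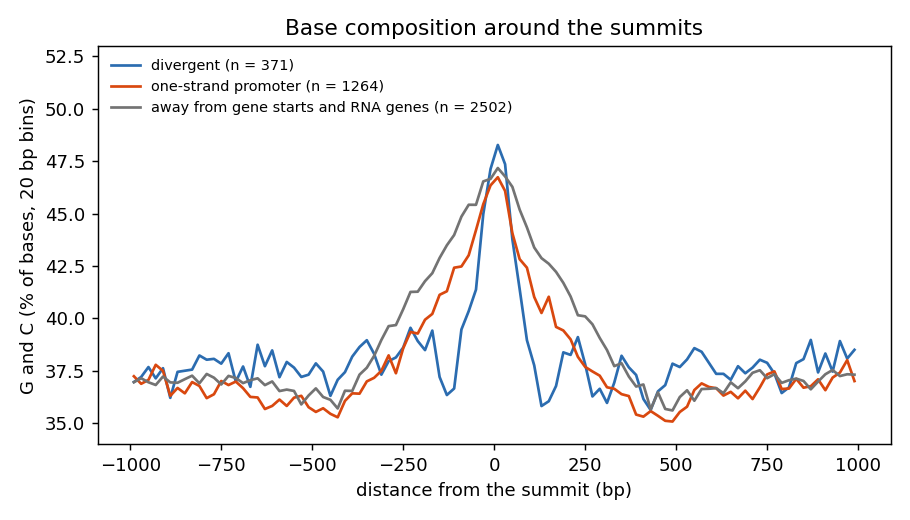
Mean share of G and C (vertical axis, percent of bases in bins of 20 bp) by distance from the summit (horizontal axis, bp, in chromosome direction) for the 371 divergent peaks, the 1264 one-strand promoter peaks and the 2502 peaks away from gene starts and RNA genes. The divergent line peaks at 48.3% and is down to 35.8% at 120 to 139 bp, where the one-strand line stands at 40.3%.

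The Sox core was about as frequent at the summits as beside them. ACAAAG or ACAATG, on either strand, occurred within 50 bases of 44 of 371 divergent summits (11.9%, exact 95% interval 8.75 to 15.6), in 45 windows 500 bp below (12.1%) and in 36 windows 500 bp above (9.70%). At one-strand promoter summits it occurred in 130 of 1264 (10.3%), and 137 of the windows below (10.8%). A summit window without these letters says nothing of whether SEM-2 bound there. Among the other words counted, GAGACG was in 42 divergent summit windows (11.3%) and 19 windows below (5.12%), against 7.67% of one-strand summits, and CACGTG, the E-box palindrome, was in 17 (4.58%) and 7 (1.89%), against 2.93% of one-strand summits. TATAAA was in 15 (4.04%) and in 32 of the windows below (8.63%), against 5.06% of one-strand summits. TGATAA was in 14 (3.77%) and 29, against 4.59%, and TTTTTT in 101 (27.2%) and 126, against 21.4%. CCCGCC was in 22 (5.93%) and 12, against 6.17%, and GAGAGA in 39 (10.5%) and 28, against 13.8%.

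All words of 6 bases were also ranked by how much more often they occurred at the divergent summits than in the mean of the windows 500 bp below and above, after the values were seen and with no test. The 3 leading words all contained CGC. GACGCA occurred at 49 summits (13.2%), in 9 windows below and in 9 above. GCGCAC occurred at 47 (12.7%), in 9 below and 7 above, and GCCGCA at 42 (11.3%), in 3 below and 7 above. At one-strand promoter summits these shares were 5.85%, 6.25% and 5.30%.

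The 4 words in capitals above overlap one another in runs such as GTGCGGC, so they were counted together. At least 1 of them occurred at 31 of the 50 strongest divergent summits (62%, exact 95% interval 47.2 to 75.3), 29 of the next 100 and 44 of the last 221 (19.9%), and in 21 of all 371 windows below (5.66%). All counts at divergent summits are shaped by the way the words were chosen, on these summits and the windows beside them, and the first most of all. At one-strand promoters, which were not used to choose them, the counts were 26 of the 50 strongest (52%), 21 of the next 100 and 156 of the other 1114. At peaks away from gene starts and RNA genes they were 9 of 50 (18%), 19 of the next 100 and 10.8% of the rest. The content of G and C in these windows of the 50 strongest was 48.4% ± 6.86 for divergent, 50.5% ± 9.56 for one-strand promoter and 48.5% ± 8.27 for the peaks away from gene starts (SD over windows, n = 50 each). The part of base composition in these counts was not tested.

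The intervals between the 5′ ends of head-to-head pairs were compared for pairs with and without a divergent peak. The first set includes pairs whose summit lay outside the interval. At gaps of 250 to 500 bp, 64 of 102 divergent summits lay between the ends. The second set is the pairs to which none of the 30000 peaks was assigned. The 4 words were picked at the summits of the divergent peaks, so their higher counts in the first set follow from the choice and support nothing. At gaps of 250 to 500 bp, at least 1 of the words was in 53 of 91 intervals of pairs with a divergent peak (58.2%). The count was 67 of 259 for pairs without (25.9%). Many intervals of pairs with a peak thus hold none. The intervals of pairs with a divergent peak were richer in G and C, with 35.8% ± 5.46 against 33.1% ± 4.91 (SD over 91 and 259 intervals) at those gaps. The Sox core was in 28 of the 91 (30.8%) and 105 of the 259 (40.5%) at those gaps, 59.6% against 61.9% at gaps of 500 to 1000 bp, and 82.2% against 85.3% at gaps of 1000 to 2000 bp.

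The transgene adds copies of sem-2 and unc-119. Neither gene has a gene start on the other strand near enough for the rule, so no divergent peak could lie at them. sem-2 had no peak of the 30000 in its window and was 43383 bp from the nearest divergent peak. unc-119 had 1, at rank 8611, with gene starts on 1 strand only, and was 34143 bp from the nearest divergent peak.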

How the data were processed

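ChIP-seq of SEM-2-eGFP was measured in 2 replicates of 1 group of embryos. The authors deposited 4 peak lists on ce11, per the labels: 1 of 30000 peaks for each replicate, a combined list of 30000 and a thresholded list of 634, of which 617 are nuclear. Column 7 is the peak caller's signal as deposited by the authors, and column 10 the summit offset; both are used as they stand. Peaks were called against a control, per the file headers. The caller, the aligner and its treatment of repeated reads are not named in any source used, and intervals cover counting error only.

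From these lists, peaks were ranked by signal and placed against Ensembl 115 genes and the WBcel235 sequence with Python 3.11.15, pandas 2.3.3, numpy 2.4.6 and scipy 1.17.1. Coordinates are 1-based. Peaks counted as shared at 1 bp of overlap, and 1 replicate peak could be counted for several members. Sequence per class was counted at every 10th base. Shares have exact (Clopper-Pearson) 95% intervals. The placing was tested on simulated data. The members, the rule and the 24 gene lists were chosen with earlier results of these data known. Pair genes of the 20 strongest members, up to 3 genes of each list in order of signal, pairs within 1 list, the peaks on either side of the thresholds, sem-2 and unc-119 were named by rule; 5 Mediator genes, absent peaks and overlapping pairs were named after their values were seen. Alternatives changed the number of rows, the windows, the gene ends, the distance from RNA genes, the overlap and the replicate. Sequences are of the strongest members outside chromosome I, and of the intervals 1 that this would include is not reported here.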

Additional observations from a re-analysis of the deposited data

How the results depend on the processing

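Of 58 values under alternative settings, 41 stayed within the exact interval of a share, the 95% interval of the mean content of G and C, or 1.5 times a count, and 17 did not; every value of G and C stayed within the SD over windows. With the 2500 rows of highest signal there were 219 divergent peaks at 463 genes, 74.4% between the 5′ ends, 55.7% shared by both replicates, 37.4% in the thresholded list and 47.7% G and C. With windows reaching 500 bp up and 250 bp down there were 145 peaks at 284 genes, 80% between the ends, 29.7% in the thresholded list and 44.7% G and C. All rows of the replicate lists gave 92.7% shared. With 100 bases either side of the summit the content of G and C was 43.3% and the Sox core was in 19.7%, since the windows are longer. From 1 replicate alone, the share between the ends was 57.1% without replicate 1 and 70.2% without replicate 3, and the content of G and C was 47.4% without replicate 1 and 44.0% without replicate 3. The cause of these differences was not tested. Counting 1 summit per pair and leaving out histone genes, both added after the data were seen, moved none of the 7 summary values by more. No paired analysis was possible because there was 1 group. The unknown depth limits every statement on a peak that is missing from a list.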
